A study of Mus musculus with 6 samples.

Results

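The guide strands miR-18a, miR-18b, miR-19a, miR-19b, miR-25 and miR-92a were examined in macrophages with and without Dicer. They carry the miR-18, miR-19 and miR-25/92 seeds and come from the miR-17-92 cluster and its 2 paralogous clusters, whose other guides are miR-363 and those with the miR-17 seed. They were taken by name from the table of threshold cycles, in which they are 6 of 596 miRNA assays, all in the first of the 2 blocks of rows. A threshold cycle (Ct) falls by 1 for each doubling of template, and 40 stands for a well without amplification. The cells were bone marrow-derived macrophages from male mice aged 6 to 8 weeks, grown for 7 days in DMEM-F12 with 10% FCS and 10% L929-conditioned medium, a source of macrophage colony-stimulating factor. WT cells came from 3 LysM-Cre/Dicerwt/wt/Apoe-/- mice and KO cells from 3 LysM-Cre/Dicerflox/flox/Apoe-/- mice. Both groups thus carried LysM-Cre, a transgene expressed in myeloid cells, and lacked Apoe, the apolipoprotein whose loss raises plasma cholesterol. The panel had no assay of Dicer mRNA, so the extent of deletion in these cultures was not measured.

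Dicer cuts a precursor hairpin near its loop and releases a duplex of a guide and a passenger strand. The guide enters an Argonaute protein and recognises target mRNAs mainly through its seed, bases 2 to 8 from its 5′ end. The miR-17-92 transcript, which is driven by Myc and E2F factors, yields several guides that promote proliferation and restrain apoptosis. Within it, miR-19 is known as the main oncogenic component in Myc-driven lymphoma, miR-18a targets Tgf-β pathway and anti-angiogenic genes, and miR-92a restrains integrin subunits. miR-25 shares its seed with miR-92a and is known to repress Bcl2l11, a pro-apoptotic gene.

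The mature sequences are shown because the members are defined by 3 different seeds, which stand in capitals. They were matched by name to RefSeq (GRCm38.p6), which held all 6, and are written 5′ to 3′.
miR-18a: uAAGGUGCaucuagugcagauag
miR-18b: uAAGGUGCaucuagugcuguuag
miR-19a: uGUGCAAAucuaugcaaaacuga
miR-19b: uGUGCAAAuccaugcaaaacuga
miR-25: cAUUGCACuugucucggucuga
miR-92a: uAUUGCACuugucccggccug
Counted from 1 at the 5′ end, miR-18a and miR-18b differ at 2 of 23 bases (A18U and A20U), and miR-19a and miR-19b at 1 of 23 (U11C). Over 21 bases miR-92a and miR-25 differ at 3 (U1C, C14U and C18U). None of these differences lies in the seed. The miR-17 guide has another seed, which differs from that of miR-18a at 1 base (A4G):
miR-17: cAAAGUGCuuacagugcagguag
Among the members the GC content was lowest in miR-19a (34.8%) and highest in miR-92a (57.1%).

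The hairpins show which arm each guide comes from, with the guide in capitals. Of the miR-19 hairpins, that of the more abundant miR-19b is shown, in its chromosome 14 copy.
Mir18: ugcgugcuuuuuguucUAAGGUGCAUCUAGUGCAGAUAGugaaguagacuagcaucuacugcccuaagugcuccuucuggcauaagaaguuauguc
Mir19b-1: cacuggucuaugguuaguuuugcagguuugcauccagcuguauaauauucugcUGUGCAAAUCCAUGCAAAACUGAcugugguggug
Mir92-1: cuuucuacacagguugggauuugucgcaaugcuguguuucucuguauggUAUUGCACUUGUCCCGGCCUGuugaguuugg
Mir25: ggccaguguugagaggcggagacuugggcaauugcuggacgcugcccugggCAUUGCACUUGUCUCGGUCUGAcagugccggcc
Both miR-18 guides lie in the 5′ arm, and the miR-19, miR-25 and miR-92a guides lie in the 3′ arm. The miR-17-92 cluster spans 836 bases at chr14:115043671-115044506 (+ strand) and holds, in order, the hairpins of miR-17, miR-18a, miR-19a, miR-20a, miR-19b-1 and miR-92a-1. In the annotation used, the last of them lies inside the bounds of the host lncRNA Mir17hg and miR-19b-1 lies partly inside them. The miR-106a-363 cluster spans 875 bases at chrX:52741693-52742567 (- strand) and holds miR-106a, miR-18b, miR-20b, miR-19b-2, miR-92a-2 and miR-363. The miR-106b-25 cluster spans 498 bases at chr5:138165321-138165818 (- strand), inside the bounds of Mcm7, a replication helicase gene, and holds miR-106b, miR-93 and miR-25. miR-19b and miR-92a each come from 2 hairpins with the same mature sequence, so their assays cannot tell the chromosome 14 copy from the chromosome X copy.

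Levels are given as log2 relative abundance, which is minus the difference between the Ct and the mean Ct of 5 endogenous control RNAs (U6, U87, Y1, snoRNA135 and snoRNA202) of the same block and sample. The control mean was 21.1, 20.6 and 19.1 in WT replicates 1 to 3, against 22.8, 20.3 and 19.3 in the KO replicates. KO replicate 1 had the latest controls, and the groups did not differ beyond their spread (exact permutation p = 0.8, two-sided). All 6 macrophage and myeloid marker miRNAs were measured in every sample. They had a lower mean in KO (log2 differences from -2.21 to -1.44), as did 247 of the 282 tested assays. Of them 3 passed an adjusted p of 0.05 with limma, beside 37.2% of all tested assays. The summed log2 level of the 6 ran from 4.82 to 5.72 in WT and from 2.99 to 3.85 in KO. The deposited tables exchange the names of 1 of these, miR-21, and miR-210. Of 2 erythroid markers with an assay, miR-486 was at Ct 40 throughout and miR-451 was below Ct 35 in 1 WT and 2 KO samples. Of 5 stromal and endothelial markers, 4 were measured in all 6 samples. The summed log2 level of the 5 ran from -6.46 to -0.69 in WT and from -4.36 to -3.26 in KO. WT replicate 3 stood apart: miR-145 was at Ct 27.88 there, against 22.58 and 22.79 in WT replicates 1 and 2. miR-143, miR-199a-3p and miR-214 were also latest there among the WT samples, and miR-126-3p was not. Of 5 epithelial markers, 3 were measured in all 6 samples. The summed level of the 5 ran from -3.13 to -2.95 in WT and from -5.50 to -4.24 in KO. All 3 lymphocyte markers were measured in all 6 samples, with a summed level from -0.03 to 0.50 in WT and from -3.87 to -0.98 in KO. Wells above Ct 35 entered the sums as 35. With limma 0 of 5 stromal and endothelial, 1 of 5 epithelial and 2 of 3 lymphocyte markers passed as lower, beside 37.2% of all tested assays. The part of other cells in the results below was not tested, and in these bulk cultures fewer expressing cells and less RNA per cell cannot be told apart.

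All 5 measured members had a lower mean in Dicer KO than in WT macrophages, as did 247 of the 282 tested assays. By the test over all assays, miR-18a was the only member that fell. Of the 5 members tested, 1 passed an adjusted p of 0.05 and 4 did not, beside 105 of 282 tested assays that were lower in KO (37.2%). The groups were fully apart, KO under WT, in 3 members (miR-18a, miR-19b and miR-25), beside 59.9% of the tested assays. The differences ran from -2.08 for miR-18a to -0.85 for miR-19b on the log2 scale. Their median was -1.24, beside -1.91 for all tested assays, and 41.8% of all tested assays had a larger fall than miR-18a, against 65.6% to 77.3% for the other 4 members. Adjusted p values are from limma with Benjamini-Hochberg adjustment over the 282 assays, unless another test is named.

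**Figure D1:**
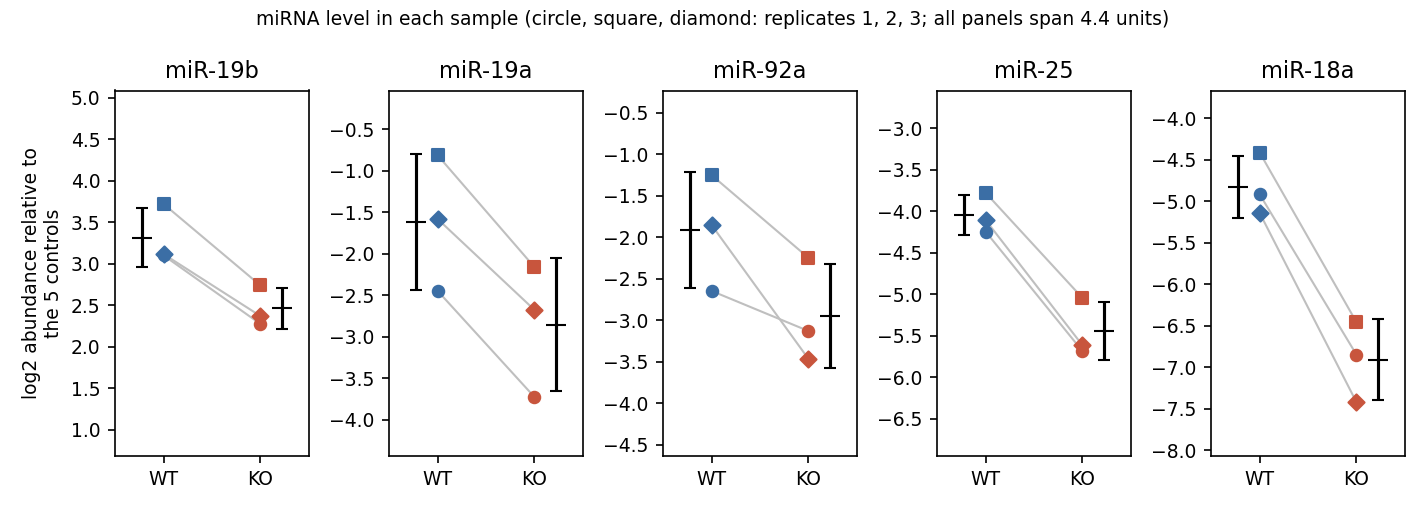
Log2 abundance relative to the 5 controls (y axis, each panel spanning the same range) of the 5 measured members in 3 WT (blue) and 3 KO (red) samples, with grey lines joining samples of the same replicate number and black bars giving the group mean ± SD. Every line runs down from WT to KO, and the groups overlap for miR-19a and miR-92a.

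miR-18a crossed the threshold at cycles 25.98, 24.97 and 24.25 in the WT replicates 1 to 3, and at 29.69, 26.73 and 26.75 in the KO replicates 1 to 3. The WT samples had log2 relative abundances of -4.92, -4.41 and -5.14, the KO samples -6.85, -6.46 and -7.42. All KO samples were below all WT samples, with KO replicate 3 the lowest. miR-18a fell 4.24-fold, to 23.6% of the WT level (log2 -2.08 ± 0.53, SE, n = 3 per group; 95% confidence interval -3.34 to -0.83; adjusted p = 0.0321). Within replicate numbers 1, 2 and 3 it was 3.81-fold, 4.12-fold and 4.85-fold lower. The call did not hold without WT replicate 1, 2 or 3 (adjusted p = 0.111, 0.123 and 0.0733), without KO replicate 2 (0.0581) or without KO replicate 3 (0.0503). It held without KO replicate 1 (adjusted p = 0.0364), and the difference stayed between -2.31 and -1.83 across these 6 fits.

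miR-18b, the copy of miR-18a in the X-linked cluster, was at Ct 40 in all 6 samples and was not tested. Its assay therefore gave no signal in wells of the same RNA in which miR-18a, 2 bases different, was at Ct 24.2 to 29.7. The authors' deposited table gives miR-18b relative quantities from 0.452 to 1.84 in WT and from 0.53 to 6.75 in KO, and a fold change of 2.39 for KO over WT. With every well at 40, these numbers follow from the control Ct values alone.

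The miR-19 guides differed widely in level. miR-19b crossed the threshold at cycles 17.97, 16.83 and 15.99 in the WT replicates, and at 20.56, 17.53 and 16.96 in the KO replicates, and it was the only member above the mean of the controls. The WT samples had log2 relative abundances of 3.10, 3.72 and 3.12, the KO samples 2.28, 2.74 and 2.37. All KO samples were below all WT samples, by a margin smaller than for miR-18a. The KO level was 55.5% of WT, a difference of -0.85 ± 0.49 (SE) that did not pass the test (95% confidence interval -2.02 to 0.32; adjusted p = 0.183). Within replicate numbers it was 1.77-fold, 1.97-fold and 1.68-fold lower.

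miR-19a, which differs from miR-19b at 1 base, varied more between samples of a group. The WT samples had log2 relative abundances of -2.45, -0.81 and -1.58, the KO samples -3.72, -2.16 and -2.67. WT replicate 1 lay below KO replicate 2, so the groups overlapped, and in both groups replicate 1 was lowest and replicate 2 highest. The KO level was 42.4% of WT (-1.24 ± 0.68, SE; 95% confidence interval -2.85 to 0.37; adjusted p = 0.166). Within replicate numbers the differences were -1.28, -1.35 and -1.09, a narrower range than that of either group. With replicate number as a blocking term, limma gave an adjusted p of 0.0535.

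Of the pair with the miR-25/92 seed, miR-25 had the steadier values. The WT samples had log2 relative abundances of -4.25, -3.78 and -4.11, the KO samples -5.69, -5.04 and -5.61. The groups did not overlap, and KO replicates 1 and 3 were close to each other. The KO level was 37.8% of WT, 2.65-fold lower (-1.40 ± 0.49, SE; 95% confidence interval -2.57 to -0.24). This did not pass with genotype alone (adjusted p = 0.0567) and passed with the replicate block (adjusted p = 0.0464). With the block 2 of 5 members passed, miR-18a and miR-25, beside 118 of the 282 assays (41.8%).

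For miR-92a the WT samples had log2 relative abundances of -2.65, -1.25 and -1.85, the KO samples -3.13, -2.25 and -3.46. WT replicate 1 lay below KO replicate 2, so the groups overlapped. The KO level was 49.0% of WT (-1.03 ± 0.61, SE; 95% confidence interval -2.49 to 0.43; adjusted p = 0.194). Its difference varied most by replicate number, from 1.40-fold lower in number 1 and 1.99-fold in number 2 to 3.06-fold in number 3.

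**Figure D2:**
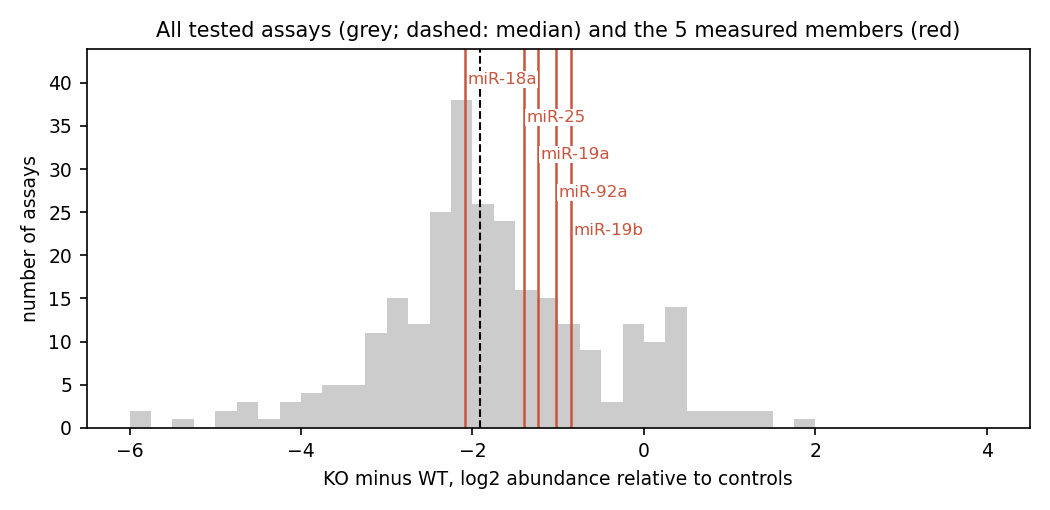
Histogram of the KO minus WT difference on the log2 scale (x axis) over the tested assays (grey; y axis, number of assays; 277 of 282 fall in the range drawn), with the 5 measured members as red lines and the median of -1.91 dashed. miR-18a lies to the left of the median and the other 4 members to the right of it.

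The order of the members was the same in both genotypes: miR-19b, miR-19a, miR-92a, miR-25 and miR-18a. In WT the means were 3.31 ± 0.35, -1.61 ± 0.82, -1.92 ± 0.70, -4.04 ± 0.24 and -4.82 ± 0.37 on the log2 scale (SD, n = 3), and in KO they were 2.46 ± 0.25, -2.85 ± 0.80, -2.95 ± 0.63, -5.45 ± 0.35 and -6.91 ± 0.48. In each genotype miR-19a and miR-92a overlapped, and every other pair of neighbours in the order was separate. Assays differ in efficiency, so this is an order of Ct values and not of copy numbers.

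The ratio of 2 members within a sample does not depend on the controls, since both are in the same block, and shows whether members differed in the size of their change. Of the 10 pairs of measured members, the groups did not overlap in 4. The pairs share members and so are not independent, and the same count was not made for pairs of other assays. With 3 samples per group the smallest exact permutation p is 0.1, and the smallest adjusted over the 10 pairs was 0.25, so no pair could pass 0.05. The ratio of miR-18a to miR-19b, on the log2 scale, was -8.02, -8.13 and -8.26 in the WT samples, against -9.12, -9.20 and -9.79 in the KO samples. It was 2.35-fold lower in KO (-1.23 ± 0.22, SE; exact permutation p = 0.1, two-sided, adjusted p = 0.25). miR-18a was also lower relative to miR-92a (-1.05 ± 0.35, SE) and to miR-25 (-0.68 ± 0.23, SE) in KO, without overlap of the groups. The ratio of miR-19b to miR-25 was 7.35, 7.50 and 7.22 in the WT samples, against 7.96, 7.78 and 7.99 in the KO samples, which is 1.47-fold higher (0.55 ± 0.10, SE; exact permutation p = 0.1, adjusted p = 0.25).

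In the other 6 pairs the groups overlapped. Compared within replicate numbers, 6 of the 10 ratios moved the same way in all 3 numbers: the 4 without overlap, miR-18a to miR-19a and miR-19a to miR-19b. The ratio of miR-19a to miR-19b, the near-identical pair, was -5.546, -4.531 and -4.695 in the WT samples, against -5.998, -4.897 and -5.044 in the KO samples. The difference was -0.39 ± 0.47 (SE; exact permutation p = 0.5, adjusted p = 0.625), which takes no account of the numbers. Replicate 1 was the lowest in both groups, and KO was lower in all 3 numbers, with an SD of the 3 differences of 0.06. The ratio of miR-25 to miR-92a, which share a seed, differed by -0.37 ± 0.33 (SE; exact permutation p = 0.4, adjusted p = 0.625).

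**Figure D3:**
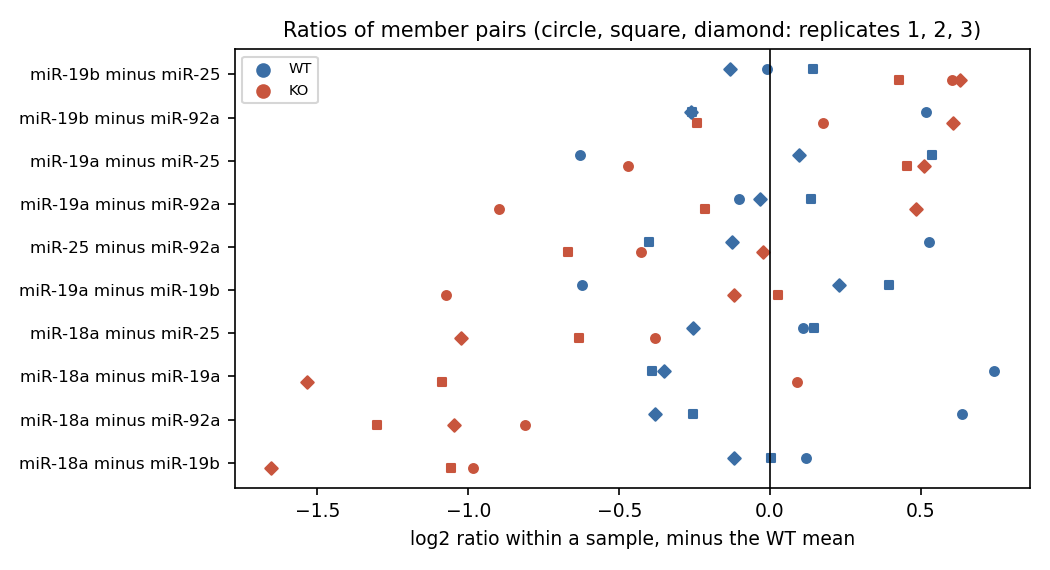
Log2 ratio of 2 members within a sample, set to the WT mean (x axis), for the 10 pairs of measured members (y axis), in WT (blue) and KO (red). Blue and red points do not overlap in the 3 pairs of miR-18a with miR-19b, miR-92a and miR-25 and in the pair of miR-19b with miR-25.

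The other guides of the clusters and of the seeds came from a list in which all but miR-92b had an assay (9 assays), and 7 were tested. Of these 7, 3 fell (miR-32, miR-93 and miR-106b), beside 37.2% of all tested assays, and with the replicate block all 7 did, beside 41.8%. Their median difference was -1.67, beside -1.91 for all tested assays. In all 7 every KO sample was below every WT sample, beside 59.9% of the tested assays. miR-93 fell 5.21-fold (adjusted p = 0.034) and miR-106b 4.50-fold (adjusted p = 0.0312). Without KO replicate 2 neither passed, nor did miR-32 (adjusted p = 0.056 for each), and without any 1 WT sample 0 of the list passed. Over all tested assays, 3 were lower without KO replicate 2 and 2 without any 1 WT sample. The remaining miR-17 seed guides did not pass with genotype alone: miR-17 was at -1.65 (adjusted p = 0.0686), miR-20a at -1.67 (0.0521), miR-20b at -1.55 (0.0994) and miR-106a at -1.66 (0.0766). miR-363, of the X-linked cluster, was below Ct 35 in 1 WT sample and miR-367 in 2 WT samples. Neither was below it in any KO sample, and they were not tested.

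**Figure D4:**
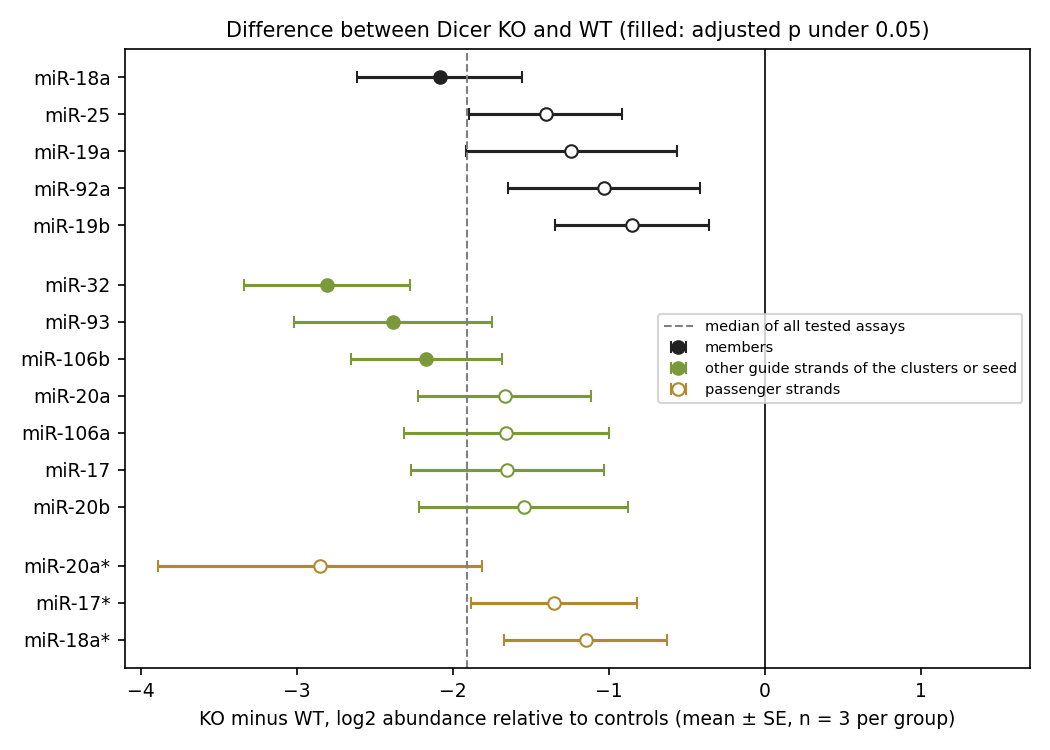
KO minus WT difference in log2 abundance relative to the controls (x axis; mean ± SE, n = 3 per group) for the members (black), the other guides of the clusters and seeds (green) and the passenger strands (brown). Filled points passed an adjusted p of 0.05; the dashed line is the median of all 282 tested assays.

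miR-32 has the same seed as miR-25 and miR-92a but lies outside the clusters, on chromosome 4, and its mature sequence reads as follows.
miR-32: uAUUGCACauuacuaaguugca
The row named miR-32 in the Ct table was 6.99-fold lower in KO (-2.81 ± 0.53, SE; adjusted p = 0.0311). Its Ct in KO replicate 1 was 36.02 and entered as 35, so the fold depends on the ceiling: the difference was -1.805 with a ceiling of 32, where it did not pass (adjusted p = 0.0839), and -3.145 with a ceiling of 40 (adjusted p = 0.0378). In the authors' deposited table of relative quantities, the values named miR-32 are those rebuilt from the Ct row named miR-320, and the reverse. Which table carries the right name was not tested, so the value of miR-32 is open to this exchange. The values of the 5 measured members were rebuilt from the Ct row of the same name.

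Within the clusters, members were set against the other guides of the same cluster. The assays of miR-19b and miR-92a read copies in 2 clusters, so their ratios cannot be assigned to 1 transcript. In the miR-106b-25 cluster miR-25 was higher relative to its neighbours in KO than in WT, without overlap of the groups. Its ratio to miR-106b was -2.35, -1.87 and -2.23 in the WT samples, against -1.202, -1.356 and -1.587 in the KO samples, 1.7-fold higher (0.77 ± 0.18, SE), and its ratio to miR-93 was 1.97-fold higher (0.98 ± 0.38, SE). In the miR-17-92 cluster the ratio of miR-19b to miR-20a was 2.22, 2.15 and 1.89 in the WT samples, against 3.38, 2.57 and 2.76 in the KO samples, 1.76-fold higher (0.82 ± 0.26, SE), without overlap. The ratio of miR-19b to miR-17 was 1.74-fold higher, with overlap (0.80 ± 0.43, SE; exact permutation p = 0.2, adjusted p = 0.356). The ratio of miR-18a to miR-17 differed by -0.44 ± 0.61 (SE; exact permutation p = 0.6, adjusted p = 0.6). These were among 16 ratios of a member to a guide of the same cluster or to miR-32, chosen after the values were seen. The groups did not overlap in 5 of the 16, the ratios of miR-25 and miR-92a to miR-32 among them, and overlapped in the rest. The smallest exact permutation p was 0.1, and 0.32 adjusted over the 16.

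**Figure D5:**
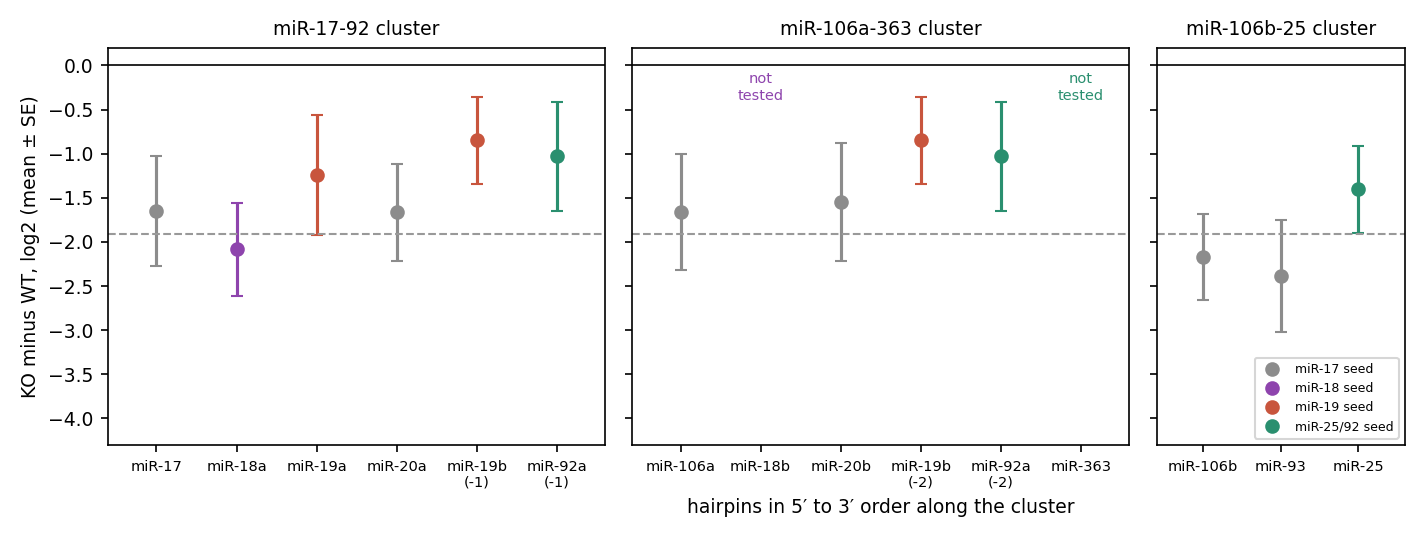
KO minus WT difference on the log2 scale (y axis; mean ± SE, n = 3 per group) for each hairpin in its 5′ to 3′ order (x axis) in the 3 clusters, coloured by seed. miR-19b and miR-92a appear in both large clusters with the same value, since 1 assay reads both copies, and the dashed line is the median of all tested assays.

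The arm of the hairpin, which played no part in the choice of members, separated the estimated differences of these guides by a narrow gap. Passenger strands were not part of this comparison. The 4 guides from a 3′ arm (miR-19a, miR-19b, miR-25 and miR-92a) had differences from -1.40 to -0.85. The 7 guides from a 5′ arm, miR-18a among them and miR-32 left out, had differences from -2.38 to -1.55. The nearest from the 2 arms were miR-20b at -1.55 ± 0.67 and miR-25 at -1.40 ± 0.49 (SE), a gap smaller than either SE. Arm and seed go together here, since no seed of these 11 guides occurs in both arms, so arm and seed cannot be told apart. The row named miR-32, from a 5′ arm with the miR-25/92 seed, was at -2.81, with the doubt about its name given above. The arms overlapped without WT replicate 2, where the highest 5′ guide was at -1.25 and the lowest 3′ guide at -1.27, and without KO replicate 1, with -1.01 and -1.29. Over all tested assays with the arm in their name, the median was -2.07 for 23 from a 5′ arm and -2.09 for 26 from a 3′ arm. The separation was noticed in these data and was given no test.

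Of the passenger strands of the clusters 6 had an assay, all in the second block. Of these 3 were tested, and 0 passed with limma, beside 37.2% of all tested assays that were lower in KO. The unadjusted p from limma was 0.0395 for miR-17*, 0.0291 for miR-20a* and 0.065 for miR-18a*, and no call rests on it. miR-18a*, from the 3′ arm of the miR-18a hairpin, was at -1.15 ± 0.52 (SE; adjusted p = 0.111), beside -2.08 for its guide. The excess of miR-18a over miR-18a* on the log2 scale was 2.29, 2.80 and 2.01 in the WT samples, against 1.97, 2.06 and 0.25 in the KO samples. The groups overlapped (exact permutation p = 0.2, two-sided), and as the strands lie in different blocks this ratio depends on both sets of controls. miR-17* was at -1.35 (adjusted p = 0.0764) and miR-20a* at -2.85 (adjusted p = 0.0624), the latter with no amplification in KO replicate 1. Without KO replicate 1 miR-20a* was at -1.66 and passed (adjusted p = 0.0422), and without KO replicate 3 it was at -3.67 and passed (0.0375). miR-92a* was at Ct 40 in all 6 samples, and miR-19a* was above Ct 35 in all 6.

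Assays with a profile like that of a member were sought over the 6 samples by the root mean square difference of log2 values, each centred on its own mean. The nearest to miR-18a were miR-130b (0.225) and the myeloid miR-223 (0.252). The nearest to miR-19a were miR-20b (0.228) and miR-17 (0.302), both with the miR-17 seed. miR-19b was nearest to miR-200b (0.175) and to miR-25 (0.295), miR-25 to miR-17* (0.169) and miR-200b (0.211), and miR-92a to miR-215 (0.315) and miR-19b (0.368). All of these assays share the same samples and, in the same block, the same controls.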

How the data were processed

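TaqMan RT-PCR of RNA from 3 WT and 3 KO macrophage cultures was used. Per the labels, the mirVana kit gave the RNA, and TaqMan kits were used for reverse transcription and preamplification. Instrument and software are not given in the sources used here. Deposited were the authors' Ct scores (608 rows: 596 miRNA assays, 335 and 261 in the 2 blocks, with 5 controls and a plant miRNA each) and tables of relative quantities and fold changes, both ratios. From their values, the authors' deposited relative quantities take the mean of U6, snoRNA135 and snoRNA202 as reference and the WT geometric mean as unit, and fold changes are ratios of arithmetic means; 33 of 596 rows were not rebuilt within 1% from the Ct row of the same name.

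All tests used the Ct scores. Values above 35 were set to 35, the mean of the 5 controls of the block was subtracted and the sign turned. An assay was tested if below 35 in all 3 samples of a group (282 assays). KO was compared with WT by limma 3.58.1 (R 4.3.3; lmFit and eBayes, two-sided), a threshold of 0.05 on adjusted p, and ratios by exact permutation tests. The fit was tested on simulated data. Python 3.11.15 and matplotlib 3.10.9 were used for sequences and figures. Same-number samples of the groups deviated together from their group means (correlations 0.23, 0.28 and 0.27 across assays, beside -0.28 to 0.01 for unlike numbers). Each group was centred on its own mean, so positive same-number values by themselves push the unlike-number values down. Replicate numbers were treated as pairs only in the fit with the replicate block and in the comparisons within numbers. The main limma fit and the permutation tests took no account of them. The pairing rests on the data, and the labels state no shared batch. The fit with the replicate block is given where it changed a call or moved a count. The number of samples limits the precision. Members, lists and marker lists were chosen with earlier results of these data known. Named were all members, the related guides and passenger strands of fixed lists, and for each member its 2 nearest profiles. Alternatives were the reference, ceiling, filter, variance trend, block, each sample left out, and the authors' quantities.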

Additional observations from a re-analysis of the deposited data

How the results depend on the processing

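Another ceiling or filter, the variance trend and the block left the differences of the 5 measured members as in the main fit, so their sign could not change there. The authors' quantities gave the same member differences as the reference of U6, snoRNA135 and snoRNA202. With these counted, the differences were negative under 17 of 18 alternatives, and that of miR-18a under all 18. The exception was the global mean of the miRNA assays as reference, which shifts the median of all tested assays by 1.71 and so shows change relative to other miRNAs. With it miR-19a was at 0.65, miR-19b at 1.04, miR-25 at 0.48 and miR-92a at 0.86, miR-18a was at -0.20, and the members' median was 0.65. Then 0 members and 0 related guides passed (limma), and 2 assays in all were lower. Without a reference, which shifts that median by -0.54, miR-18a was at -2.66 and did not pass, and the counts were 0, 0 and 2. U6 alone shifts it by -0.11 and changed no call of a member. With no filter miR-18a was at -2.08 and did not pass, and the counts were again 0, 0 and 2. There 596 assays were tested, and the SE of miR-18a was 0.79, against 0.53 in the main fit. miR-25 passed at -1.48 with the controls of both blocks pooled, and at -1.40 with a ceiling of 32, with assays below the ceiling in all 6 samples, with a variance trend and with the replicate block. In each of these 5 settings 2 members passed. Beside them, 109 of 282 assays in all were lower with the pooled controls, and 117 of 246 with the ceiling of 32. Among assays below the ceiling in all 6 samples 114 of 201 were lower. The numbers were 116 of 282 with the trend and 118 of 282 with the block. The related guides that passed numbered 5 with assays below the ceiling in all 6 samples, 5 with the trend and 7 with the replicate block, and 1 passenger strand passed with a ceiling of 32. Across its 18 alternatives the adjusted p ranged from 0.0144 to 0.874 for miR-18a and from 0.0351 to 0.589 for miR-25. Leaving out 1 sample at a time gave miR-18a from -2.31 to -1.83, 0 to 1 members, 0 to 3 related guides, 0 to 1 passenger strands and 2 to 112 assays in all. The cause was not tested; 101 adjusted p values lay between 0.03 and 0.05. The adjusted p of miR-19a, miR-19b and miR-92a was not under 0.05 in any of 18 alternatives. miR-18b, at Ct 40 throughout, is given no difference, since any value would come from the controls alone. Exchanging the rows named miR-32 and miR-320, or leaving out miR-32, both added after the data were seen, left 2 related guides that passed. Of the 10 ratios of members, 4 to 6 did not overlap when a sample was left out, and 6 kept 1 sign within the replicate numbers. The replicate block changed no call of a member other than miR-25.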
